A study of Rattus norvegicus with 10 samples.

Results

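Genes of cholesterol synthesis were followed in the brains of single rats that had breathed either water vapor or the vapor of DMHF, a furanone known for its sweet, fruity smell. The genes were chosen by name, with earlier results of these data known. They are Hmgcs1, Idi1, Fdps, Fdft1, Sqle, Cyp51, Dhcr7 and Insig1, on every probe set that the platform annotation assigns to a single gene. Of these 8 genes, 7 were found, on 10 of the 20826 probe sets with a single gene, or 7 of 14217 genes. Hmgcs1 is not named among the probe sets used here. No gene of cholesterol uptake is among the 8, so uptake was described from a separate list. The material was total RNA of the right brain of 10 male Wistar rats aged 7 weeks, 1 rat per Affymetrix array, with 5 control rats given the vapor of distilled water and 5 given that of DMHF. Inhalation lasted 5 min and the animals were killed after a further 10 min. The titles call the samples biological replicates, and no source used here says whether rats shared a litter or cage.

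The brain makes nearly all of its own cholesterol, because lipoproteins of the blood do not cross the blood-brain barrier. Acetyl-CoA is turned through mevalonate into isoprenoid units, these are joined to farnesyl diphosphate and squalene, and squalene is closed and trimmed to cholesterol. The transcription factor SREBP2 raises the transcription of most of these enzymes when sterols are low, and INSIG proteins hold its escort SCAP in the endoplasmic reticulum when sterols are high. In the brain, oligodendrocytes that build myelin and astrocytes that supply neurons are the main makers of cholesterol.

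The deposited values were taken as log2 values, and their differences between arrays were very small: the median of the probe sets' SDs across the 10 arrays was 2.20 millionths of a log2 unit. Values below are therefore millionths of a log2 unit from the mean of the control rats for the same probe set, cannot be read as folds of RNA, and are not compared between probe sets in that unit. Comparisons between genes use the within-group SD of each probe set. In tissue RNA, fewer cells of a type and less RNA per cell cannot be told apart. All 10 neuron markers, all 10 astrocyte markers and all 11 oligodendrocyte markers measured lay above the array median of 7.24, and so did all 7 members. Of all 14217 genes, 9250 lay above it.

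No member passed the test for a difference between DMHF and control rats. Of the 10 probe sets, limma called 0 at an adjusted p under 0.05, 0 at an unadjusted p under 0.05, and the exact permutation test 0 at an unadjusted p under 0.05. Over all 31042 probe sets limma called 0 higher and 0 lower (0%), and 5.48% had an unadjusted p under 0.05 (5.14% by the exact test). At gene level, where the probe set with the highest mean stood for the gene, 6 of 7 members were nominally lower in DMHF, against 47.0% of all genes. With single rats left out the count ran from 5 (without control replicate 4 or DMHF replicate 2) to 7 (without DMHF replicate 1 or 5). The median difference of the 7 was -0.575 within-group SD, against 0.0477 over all genes. No member had all 5 DMHF rats on one side of the controls, which 0.535% of probe sets had above and 0.332% below. What the members showed was a spread among the DMHF rats. Replicate 2 was the lowest of the 10 rats for 6 of the 7 members, against 11.2% of all genes. Replicate 1 was the highest for 3, against 17.0% of all genes.

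**Figure D1:**
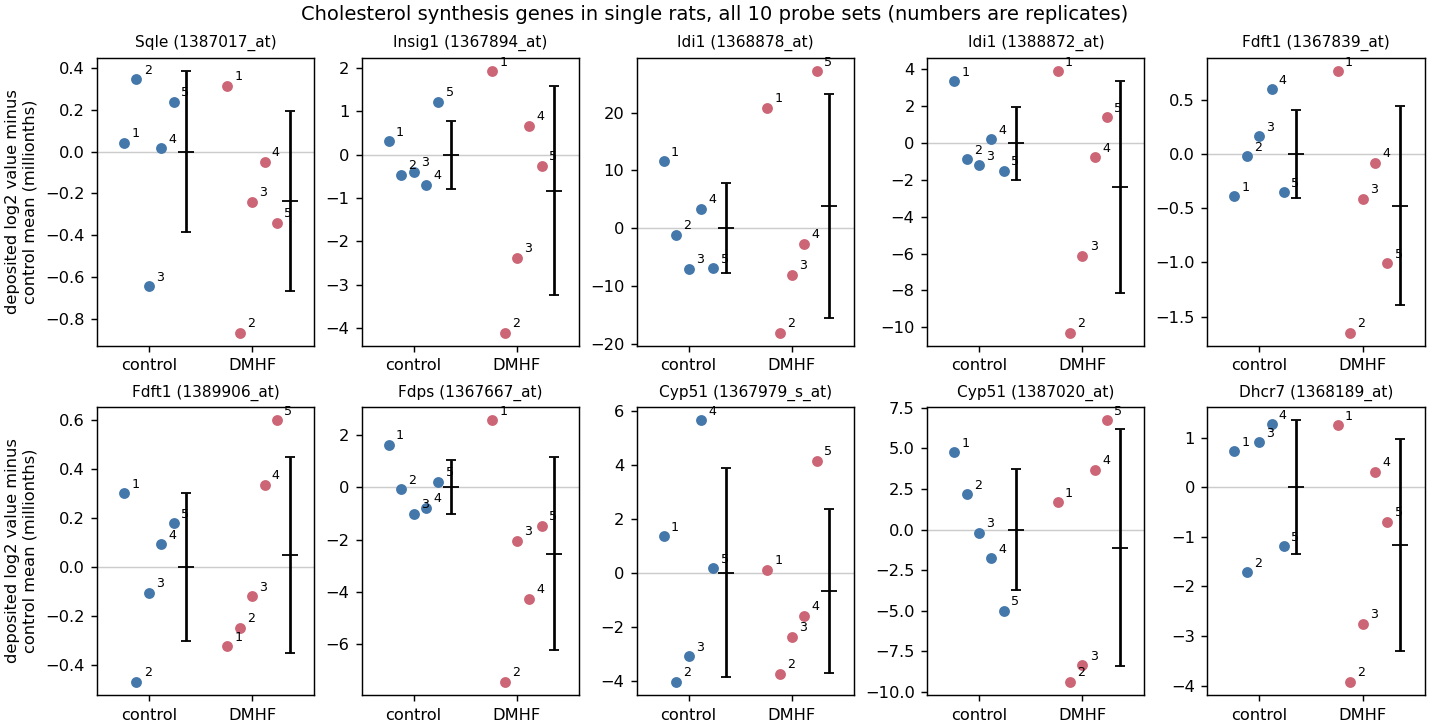
Each panel shows 1 probe set of a cholesterol synthesis gene, with the deposited log2 value of each rat minus the control mean in millionths on the vertical axis and the group on the horizontal axis; numbers are replicates and black bars are the mean and SD of 5 rats. DMHF replicate 2 lay lowest in 8 of the 10 panels, and each axis has its own scale.

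The enzymes that make and join isoprenoid units are Idi1, the isomerase of isopentenyl diphosphate, and Fdps, farnesyl diphosphate synthase. On its brighter probe set Idi1 stood at 11.6, -1.11, -6.94, 3.37 and -6.89 millionths in control replicates 1 to 5 and at 20.9, -18.0, -8.00, -2.66 and 27.2 in DMHF replicates 1 to 5. The DMHF rats thus took both ends of the range, with replicates 1 and 5 above and 2 and 3 below every control. The difference was 3.86 millionths (SE 8.87, 95% interval -16.2 to 23.97), or 0.262 SD, with an unadjusted p of 0.673 by limma. The dimmer Idi1 probe set had 3.35, -0.862, -1.22, 0.214 and -1.49 in control and 3.91, -10.3, -6.11, -0.757 and 1.41 in DMHF rats, a difference of -2.37 (SE 2.60). The probe sets put replicates 2 and 3 below every control alike, while the sign of the mean difference was opposite.

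Fdps had the largest difference of the members in SD units. Its values were 1.63, -0.0646, -1.01, -0.775 and 0.211 in control replicates 1 to 5 and 2.57, -7.45, -2.05, -4.26 and -1.48 in DMHF replicates 1 to 5. Replicates 2 to 5 of DMHF lay below all controls and replicate 1 above all of them, so the groups were interleaved. The mean difference was -2.53 millionths (SE 1.65, 95% interval -6.27 to 1.197), or -0.935 SD. Its adjusted p by limma was 0.961 and its exact permutation p 0.183. Without DMHF replicate 2 it was -1.31 and without DMHF replicate 1 it was -3.81.

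Fdft1, squalene synthase, and Sqle, squalene epoxidase, form squalene and its epoxide, the first steps given over to sterols. Fdft1 had -0.387, -0.0222, 0.163, 0.597 and -0.350 in control rats and 0.764, -1.65, -0.413, -0.0792 and -1.01 in DMHF rats on its brighter probe set. DMHF replicate 1 was again the highest rat and replicate 2 the lowest, and the mean difference was -0.477 (SE 0.476, 95% interval -1.56 to 0.603). The dimmer Fdft1 probe set did not show that order: DMHF replicate 1 stood at -0.322 and replicate 2 at -0.248, within the control range of -0.468 to 0.3002, and the difference was 0.0488 (SE 0.301). Sqle had 0.0432, 0.346, -0.646, 0.0172 and 0.239 in control and 0.317, -0.868, -0.240, -0.0488 and -0.340 in DMHF rats. Only DMHF replicate 2 lay outside the control range, and the difference was -0.236 (SE 0.326), or -0.575 SD, against a Sqle spread of 0.386 (SD, n = 5) in control and 0.433 in DMHF rats.

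Later steps are covered by Cyp51, lanosterol 14-alpha-demethylase, and Dhcr7, the reductase that yields cholesterol. Dhcr7 stood at 0.725, -1.71, 0.904, 1.27 and -1.19 in control and at 1.25, -3.93, -2.76, 0.314 and -0.698 in DMHF rats. DMHF replicates 2 and 3 were below every control and the other three within the control range, giving a difference of -1.16 (SE 1.10), or -0.650 SD. For Cyp51, the brighter probe set, whose suffix marks probes shared between transcripts, had 1.34, -4.05, -3.11, 5.64 and 0.172 in control and 0.112, -3.75, -2.37, -1.60 and 4.14 in DMHF rats, so that all DMHF rats lay within the control range (difference -0.692, SE 2.10). On the dimmer Cyp51 probe set, with 4.78, 2.19, -0.199, -1.77 and -5.01 in control and 1.70, -9.39, -8.38, 3.68 and 6.74 in DMHF rats, DMHF replicates 2 and 3 were once more the lowest (difference -1.13, SE 3.50).

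Insig1, the sterol-responsive anchor of SCAP and itself a target of SREBP2, had 0.315, -0.460, -0.386, -0.688 and 1.22 in control rats and 1.93, -4.11, -2.38, 0.673 and -0.253 in DMHF rats. DMHF replicate 1 lay above and replicates 2 and 3 below all controls. The difference was -0.827 (SE 1.10, 95% interval -3.32 to 1.67), or -0.461 SD, with an exact permutation p of 0.508. Without DMHF replicate 2 the Insig1 difference was -0.00770.

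The spread among rats was larger in the DMHF group than in the control group for 6 of 7 members, and for 54.4% of all genes. The SD of Fdps was 3.69 millionths in DMHF and 1.04 in control rats, a ratio of 3.55. For Insig1 the ratio was 3.10 (2.42 against 0.778), for Idi1 2.48 and for Fdft1 2.26, while Sqle stood at 1.12 and Cyp51 at 0.787. The median ratio of the 7 members was 2.26, against 1.06 over all genes. A ratio of at least 2 was found for 11.8% of all genes. Without DMHF replicate 2 the median ratio of the members was 1.82 and without DMHF replicate 1 it was 1.71, with 5 of 7 members more spread in DMHF in either case (medians over all genes 1.04 and 0.956). The difference in spread was not tested.

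With group means removed, all 21 pairs of the 7 members had a positive Pearson r over the 10 rats, against 50.6% of all pairs of genes, and the median r was 0.621, against 0.00700 over all pairs of genes. An r of at least 0.6 was reached by 11 of 21 member pairs and by 6.32% of all gene pairs. Since the members were chosen with earlier results of these data known, this contrast and the p-values of the pairs are descriptions. The closest pair was Idi1 and Fdps (r = 0.771, exact permutation p = 0.0507; Spearman rho = 0.673, exact p = 0.104). It was followed by Insig1 and Fdps (r = 0.749, exact p = 0.0828; rho = 0.430, exact p = 0.324), and by Fdft1 and Dhcr7 (r = 0.744, exact p = 0.0402; rho = 0.770, exact p = 0.0361). The smallest unadjusted p belonged to Idi1 and Cyp51 (r = 0.679, exact p = 0.0149; rho = 0.685, exact p = 0.0196). The lowest r was that of Fdft1 and Cyp51 (r = 0.199, exact p = 0.583; rho = 0.115, exact p = 0.747). Adjusted over the 21 pairs, which all share the same 10 rats, 0 pairs passed by r (smallest adjusted exact p = 0.187, 4 pairs with an unadjusted exact p under 0.05) and 0 by rho (smallest adjusted exact p = 0.379, 2 pairs unadjusted). The test was two-sided and permuted rats within groups, 14400 ways in all. With all arrays set to a common median, which adds 1 offset to every gene of an array, 12 pairs passed and the median r was 0.863. The array medians spanned 15.2 millionths. The within-group SDs of the members ran from 0.410 (Sqle) to 3.48 (Cyp51), with Idi1 at 14.7. As all genes share that offset, these 12 pairs are not read as covariation of the members.

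The shared variation was smaller without DMHF replicates 1 and 2. Without these 2 rats, which were farthest from the median of the members' mean profile, 12 of 21 pairs kept a positive r and the median r was 0.129. Idi1 and Cyp51 kept an r of 0.679 and Idi1 and Fdps one of 0.574, whereas Fdft1 and Fdps turned from 0.621 to -0.828 and Idi1 and Fdft1 from 0.358 to -0.516. With the 2 rats farthest in the first gene of a pair left out instead, Idi1 and Fdps had r = 0.628, Fdft1 and Dhcr7 0.363, Idi1 and Cyp51 0.508, Insig1 and Fdps -0.124 and Fdft1 and Cyp51 -0.0625. Leaving out DMHF replicate 2 alone brought the median r to 0.308 with 18 positive pairs, and leaving out DMHF replicate 1 alone to 0.420 with 21.

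**Figure D2:**
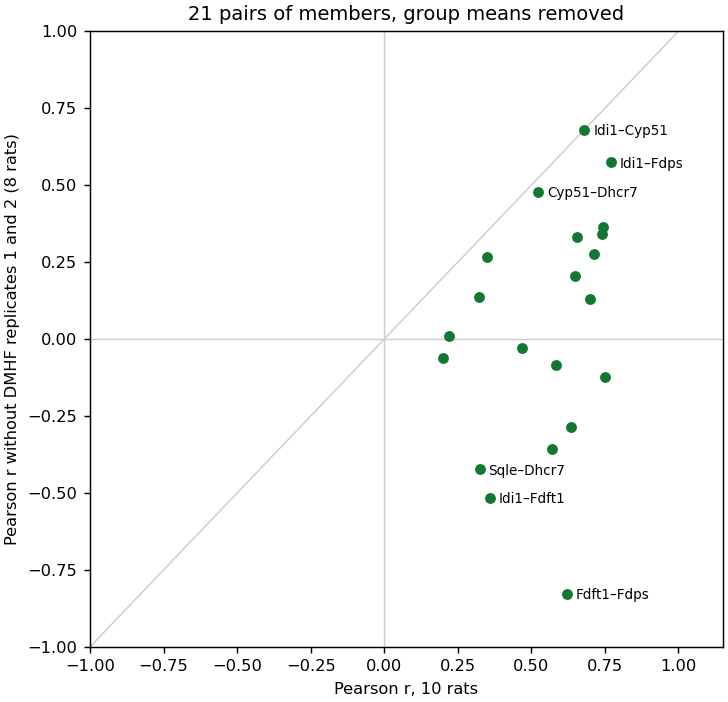
Each point is 1 of the 21 pairs of members, with Pearson r over 10 rats on the horizontal axis and r without DMHF replicates 1 and 2 on the vertical axis, group means removed in both. All points lie right of 0, and 9 fall below 0 on the vertical axis.

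Probe sets of a gene offered a second measure in the same RNA. The pair of Idi1 probe sets ran together (r = 0.907, exact p = 0.00542; rho = 0.939, exact p = 0.00347), and the dimmer one followed the mean of the other 6 members at r = 0.913. For Cyp51 the probe sets correlated at 0.376 (exact p = 0.285; rho = 0.370, exact p = 0.241) and the dimmer one followed the other members at 0.650, against 0.462 for the brighter one. Fdft1 was divided, with r = -0.214 between its probe sets (exact p = 0.628; rho = -0.273, exact p = 0.492), and its dimmer one followed the other members at 0.348, against 0.657 for the brighter one. The measures below differ in what a gene is set against, so their orders are not compared. Against the mean of the other members, by Pearson r over 10 rats, Insig1 stood at 0.820, Fdps at 0.808, Idi1 at 0.763 and Dhcr7 at 0.757. Fdft1 stood at 0.657, Sqle at 0.626 and Cyp51 at 0.462. Spearman's rho was taken against the mean of all 7 members, which holds the gene itself. By that rho Idi1 came to 0.927, Cyp51 to 0.818, Fdps and Dhcr7 to 0.661, Insig1 to 0.648, Sqle to 0.491 and Fdft1 to 0.358. The r without DMHF replicates 1 and 2 was also against the mean of all 7. It was 0.866 for Cyp51, 0.744 for Idi1, 0.598 for Dhcr7, 0.471 for Insig1, 0.242 for Sqle, 0.182 for Fdps and -0.0891 for Fdft1.

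Promoters are shown for the 3 measured members that hold a CCAAT box, the letters bound by NF-Y, a partner of SREBP at many sterol genes. Whether the box bears on the variation between rats was not tested. The sequences are from RefSeq (build GRCr8), 250 bases up to the transcription start, with CCAAT or its reverse complement in capitals: Idi1 (chr17:66547525-66547774, minus strand), Fdps (chr2:176804817-176805066, minus strand) and Insig1 (chr4:8057770-8058019, minus strand).
Idi1: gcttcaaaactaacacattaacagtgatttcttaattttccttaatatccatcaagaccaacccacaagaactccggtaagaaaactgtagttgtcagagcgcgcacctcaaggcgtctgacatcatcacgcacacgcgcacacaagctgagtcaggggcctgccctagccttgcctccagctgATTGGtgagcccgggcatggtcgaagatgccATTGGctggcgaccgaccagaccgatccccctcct
Fdps: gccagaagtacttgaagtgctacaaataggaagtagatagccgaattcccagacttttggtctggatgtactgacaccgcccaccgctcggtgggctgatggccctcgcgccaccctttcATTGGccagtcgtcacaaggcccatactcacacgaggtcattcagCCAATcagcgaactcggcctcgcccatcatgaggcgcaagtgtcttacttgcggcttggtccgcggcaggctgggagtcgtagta
Insig1: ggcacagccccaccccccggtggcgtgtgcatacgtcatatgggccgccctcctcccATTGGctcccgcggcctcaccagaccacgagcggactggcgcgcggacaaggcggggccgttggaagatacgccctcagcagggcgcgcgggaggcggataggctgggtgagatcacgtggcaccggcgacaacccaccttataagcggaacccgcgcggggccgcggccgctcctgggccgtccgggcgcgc
The promoter of Hsd17b7 (chr13:84722755-84723004, minus strand), a sterol enzyme described below, is given for comparison.
Hsd17b7: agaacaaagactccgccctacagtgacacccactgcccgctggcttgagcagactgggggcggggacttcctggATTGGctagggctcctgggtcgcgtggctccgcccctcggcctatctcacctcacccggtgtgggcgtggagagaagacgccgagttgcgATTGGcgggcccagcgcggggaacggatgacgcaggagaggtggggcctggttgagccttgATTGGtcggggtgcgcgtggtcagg
CCAAT on either strand occurred in 3 of the 5 members with an entry (Idi1, Fdps and Insig1, not Cyp51 or Dhcr7) and in 34.0% of the 33469 promoters of this length. Its starts lay 66 and 35 bases before the Idi1 start, 130 and 85 before that of Fdps, 193 before that of Insig1 and 176, 86 and 25 before that of Hsd17b7. Of 12 promoters of other measured sterol enzymes, 11 held CCAAT. The GC box GGGCGG on either strand was in 4 of the 5 members (Fdps, Insig1, Cyp51 and Dhcr7), 10 of the 12 other sterol enzymes and 30.5% of all promoters. The core TCACNCCAC of the sterol regulatory element, on either strand, was in 0 of the 5 and 0 of the 12, and in 0.974% of all promoters. In the windows printed, CCAAT and GGGCGG overlapped 0 times, and a match describes letters and not a bound site. Sqle and Fdft1 have no entry in this table.

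A list of other enzymes of the mevalonate pathway and sterol synthesis gave 13 measured genes. None passed limma in either direction. Of the 13, 3 were nominally higher and 10 lower in DMHF (median -0.274 SD), against 47.0% of all genes lower. By limma 1 had an unadjusted p under 0.05 and by the exact test 1, against 683 and 688 of all 14217 genes. That gene was Hsd17b7, a ketosteroid reductase of the sterol ring. It stood at 8.21, 0.319, -3.48, -2.42 and -2.63 millionths in control replicates 1 to 5 and at 16.7, -258, -142, -129 and -58.8 in DMHF replicates 1 to 5. DMHF replicates 2 to 5 lay far below every control and replicate 1 above them all, the same order of extremes as Fdps. The difference was -114 millionths (SE 43.5), or -1.58 SD. Its adjusted p by limma was 0.871 and its unadjusted exact p 0.0476. The other probe set of Hsd17b7 had 62.2, -8.05, 9.12, -12.9 and -50.3 in control and 52.2, -247, -113, -88.7 and -100.1 in DMHF rats, again with DMHF replicates 2 to 5 below all controls (difference -99.3, SE 48.4). Pmvk, phosphomevalonate kinase, differed by -3.31 (SE 1.74), and the sterol reductases Tm7sf2 and Lbr by 4.75 (SE 3.97) and 1.77 (SE 1.44).

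**Figure D3:**
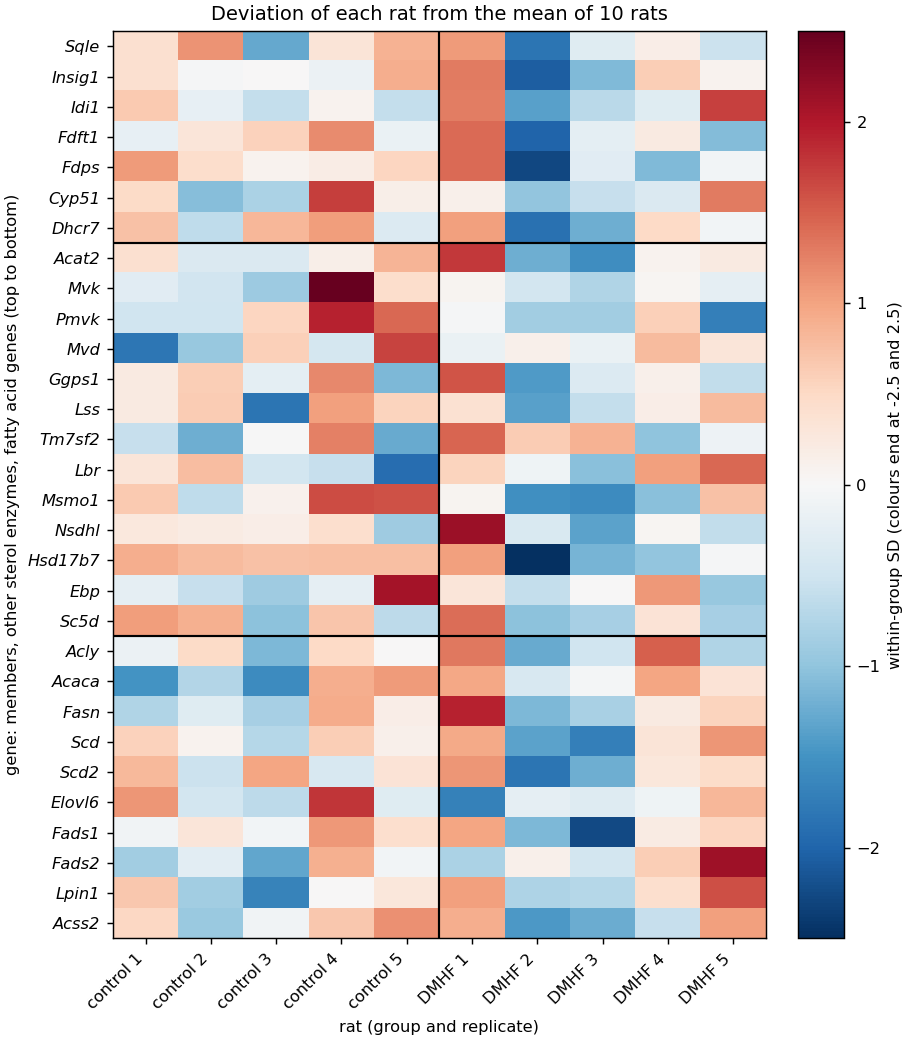
Colours give the deviation of each rat (columns, group and replicate) from the mean of 10 rats in units of the within-group SD for each gene (rows), with the 7 members on top, 13 other sterol enzymes in the middle and 10 fatty acid genes below. The column of DMHF replicate 2 is blue for every member. That of DMHF replicate 1 is red for the members except Cyp51, which is close to white (0.132 SD).

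The 13 other sterol enzymes followed the members' mean profile between rats at a median r of 0.612, with 12 of 13 positive and 7 of 13 at 0.6 or above. Over the 14210 genes outside the members the median was 0.0517, and 12.5% reached 0.6. Hsd17b7 (r = 0.942, rho = 0.830), Acat2, which makes acetoacetyl-CoA (r = 0.843, rho = 0.782), Ggps1 (0.748 and 0.564) and Sc5d (0.681 and 0.709) were highest, and Mvd, which decarboxylates diphosphomevalonate, stood at -0.128 and -0.248. Genes of fatty acid synthesis, which SREBP1 drives, had a median of 0.728, with 7 of 10 at 0.6 or above, among them Fasn, fatty acid synthase (0.865 and 0.891), and Scd, a desaturase (0.826 and 0.939). Without DMHF replicates 1 and 2 the medians were 0.447 for the sterol enzymes, 0.750 for the fatty acid genes and 0.0247 for all genes. DMHF replicate 2 was the lowest rat for 2 of the 13 sterol enzymes and 4 of the 10 fatty acid genes, and for 11.2% of all genes. DMHF replicate 1 was highest for 6 of the 13 and 2 of the 10, and for 17.0% of all genes. These correlations are descriptions, since the profile is a mean over chosen genes.

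**Figure D4:**
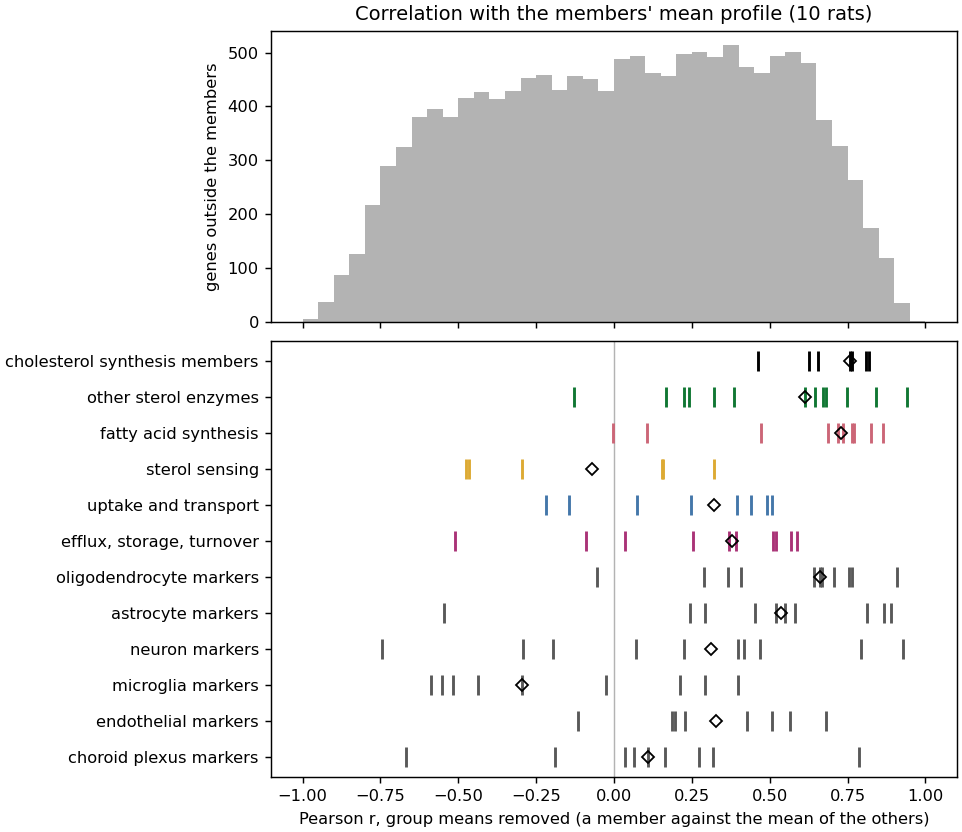
The upper panel counts genes outside the members by their Pearson r with the members' mean profile over 10 rats, and the lower panel marks the genes of each list with diamonds at the medians. The members (median 0.757, each against the mean of the others), the sterol enzymes (0.612), the fatty acid genes (0.728) and the oligodendrocyte markers (0.661) lie to the right of the median of all genes (0.0517). So do astrocyte (0.536), efflux (0.380), endothelial (0.327), uptake (0.322), neuron (0.312) and choroid plexus (0.108) genes. Sterol sensing genes (-0.0706) and microglia markers (-0.296) lie to its left.

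The 6 measured genes of sterol sensing were all nominally higher in DMHF, as were 7535 of all 14217 genes. Of the 6, 0 passed limma and 0 had an unadjusted p under 0.05 by limma or the exact test. Their median r with the members was -0.0706. Srebf2, which encodes SREBP2, differed by 0.0514 (SE 0.306) and had r = -0.476 (rho = -0.697). Srebf1, which encodes SREBP1, differed by 1.48 (SE 0.943), with r = 0.321 (rho = 0.0303). Mbtps2, a protease that releases SREBP, differed by 0.721 (SE 1.22), and Insig2 by 0.0462 (SE 0.257).

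Genes of lipoprotein uptake and cholesterol transport gave 8 measured genes. Of the 8, 2 were nominally higher and 6 lower, against 47.0% of all genes lower, and 0 passed limma. Their median r with the members was 0.322. By limma 1 had an unadjusted p under 0.05 and by the exact test 1, against 683 and 688 of all 14217 genes. That gene was Vldlr, the very low density lipoprotein receptor, with 1.64, -0.187, 1.70, 0.725 and -3.87 in control and -0.829, -2.96, -4.14, -2.40 and -4.45 in DMHF rats. All DMHF rats were below 4 of the 5 controls, and control replicate 5 lay among them. The difference was -2.96 (SE 1.18), or -1.54 SD, and its adjusted p by limma was 0.876. Of the other 3 probe sets of Vldlr, 2 were lower too (-3.16, SE 1.57, and -14.7, SE 7.67) and 1 differed by 0.368 (SE 0.956). Stard4, a sterol carrier, differed by -3.78 (SE 2.62), Mylip, which marks lipoprotein receptors for breakdown, by -3.28 (SE 2.31) and Scarb1, a lipoprotein receptor, by 1.05 (SE 0.769).

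Of the efflux, storage and turnover genes, 6 of 10 were nominally higher and 4 lower, against 47.0% of all genes lower. None passed limma, and 0 had an unadjusted p under 0.05 by limma or the exact test. Nr1h3, the sterol-sensing receptor LXR alpha, differed by -4.18 (SE 1.92) and Soat1, which esterifies cholesterol, by -2.08 (SE 1.31). Apoe, the main apolipoprotein of the brain, differed by 0.282 (SE 0.298) and Nr1h2, LXR beta, by 1.58 (SE 1.94). In the fatty acid list 5 of 10 were higher and 5 lower, with 0 past limma and 0 at an unadjusted p under 0.05 by limma or the exact test. Fads1, a desaturase, differed by -9.26 (SE 8.37), Fads2 by 4.10 (SE 3.87), Acaca, acetyl-CoA carboxylase, by 0.420 (SE 0.402) and Lpin1 by 2.17 (SE 2.09).

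**Figure D5:**
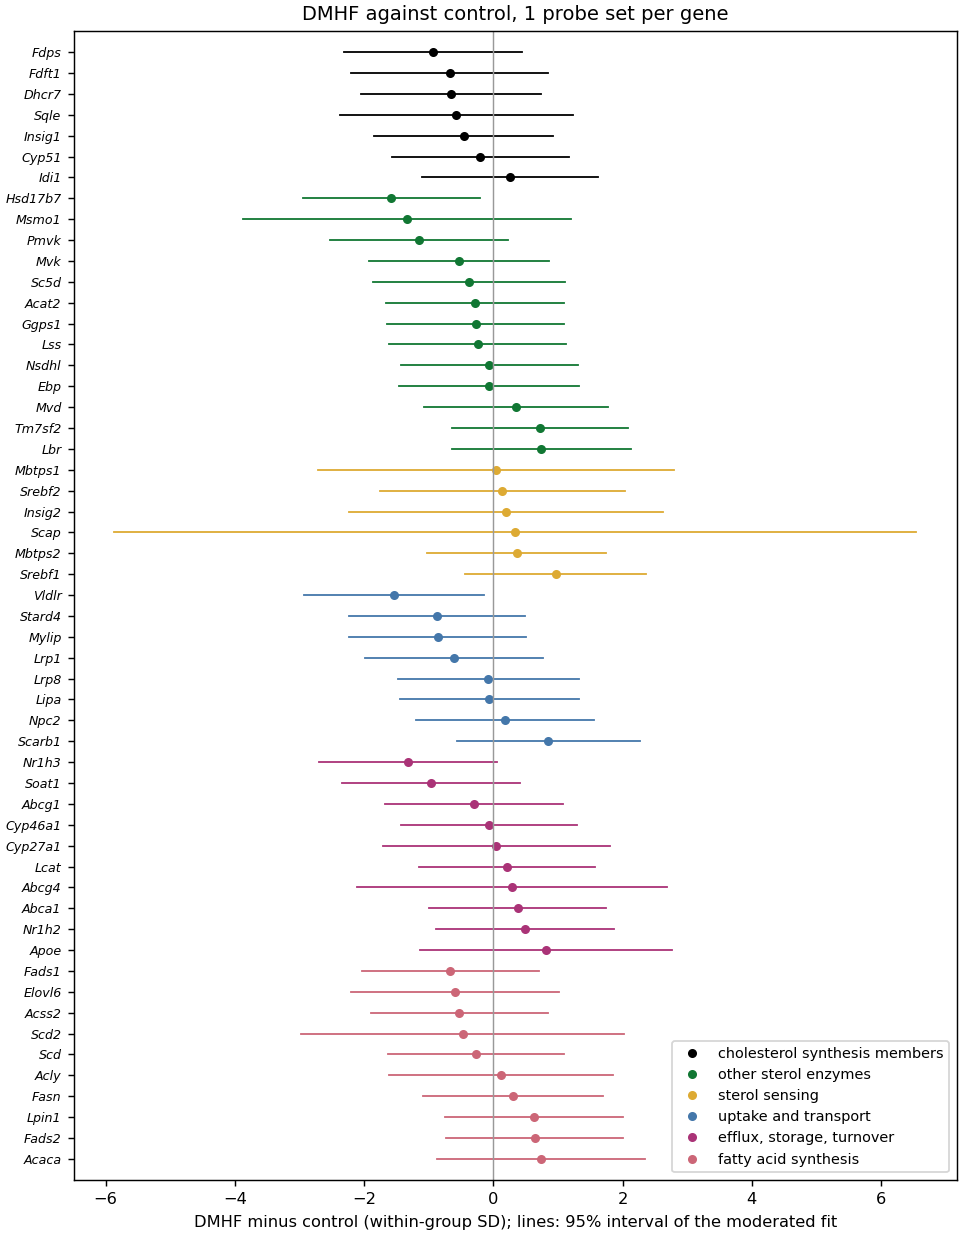
Points give DMHF minus control in units of the within-group SD for 54 genes of the 6 lists, 1 probe set per gene, and lines the 95% interval of the moderated fit. The interval of every member crosses 0, and Hsd17b7 and Vldlr, neither past the test after adjustment, have intervals wholly below 0.

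Markers of cell types were set beside the members' profile. The mean of the 11 oligodendrocyte markers followed it at r = 0.792 (rho = 0.770), with 10 of 11 positive and 7 of 11 at 0.6 or above (53.6% and 12.5% of all genes), and ranged from -0.517 to 0.593 SD from the mean of 10 rats in control and from -1.13 to 0.750 in DMHF rats. The lowest was DMHF replicate 2 (-1.13) and the next DMHF replicate 3 (-1.02). Astrocyte markers gave r = 0.756 (rho = 0.709; 9 of 10 positive, 3 of 10 at 0.6 or above, control -0.993 to 0.487, DMHF -0.651 to 0.587) and neuron markers 0.826 (rho = 0.685; 7 of 10 positive, 2 of 10 at 0.6 or above, control -0.0772 to 0.190, DMHF -0.580 to 0.289). The median r of single neuron markers was 0.312, and Slc17a7, a glutamate transporter of synaptic vesicles, stood at -0.746. Microglia stood at -0.416 (3 of 9 positive, control -0.211 to 0.629, DMHF -0.800 to 0.419), endothelium at 0.498 (7 of 8, control -0.637 to 1.02, DMHF -0.988 to 0.384) and choroid plexus at 0.125 (7 of 9, control -1.49 to 0.521, DMHF -0.664 to 1.31). Without DMHF replicates 1 and 2 the r was 0.779 for oligodendrocyte, 0.873 for astrocyte and 0.0957 for neuron markers. The leading principal component of all probe sets, with group means removed, held 23.3% of the variance and followed the profile at r = 0.840 (rho = 0.867). With that component removed, the median r of the member pairs was 0.328 and 14 of 21 were positive. The array median followed it at r = 0.320. The part of cell makeup and of this array-wide component in the covariation of the members was not tested.

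Over all genes, those most like the members' mean profile were, by Pearson r over 10 rats, Ndufa2 (0.953), Hsd17b7 (0.942), Brd1 (0.941), Maneal (0.941), Optn (0.940), Ibtk (0.937), Nudt9 (0.935), Orai2 (0.933), Usp39 (0.931) and Tmcc2 (0.930). The most opposed were Erhl1 (-0.992), Col17a1 (-0.991), Jph2 (-0.968), Plk1 (-0.957) and Kctd13 (-0.954). They are the extremes of 14210 correlations over the same 10 arrays. Without DMHF replicates 1 and 2 Ndufa2 stood at 0.962 and Erhl1 at -0.992, and Hsd17b7 at 0.581.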

How the data were processed

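Values came from 1 deposited table of 31099 probe sets and 10 arrays. The authors' deposited log2 values were used as given, between 5.25 and 14.2. The log base is inferred from that range, the scale was read as higher for more RNA, and background correction, normalization and summary are stated in no source used here, so how differences this small arose is unknown. R 2.7.2 is named per the submitters' processing notes. Left out were 57 control probe sets. Gene names are those of the platform annotation at GEO: 20826 probe sets name 1 gene, 436 several and 9780 none, and 20758 of the 20826 were found by identifier in RefSeq's rat gene table (GRCr8), which changed 0 symbols. All 31042 probe sets were fitted with limma 3.58.1 in R 4.3.3 (lmFit, eBayes, two-sided, Benjamini-Hochberg, threshold 0.05, prior df 0.841). Moderation widens the SE of probe sets with little spread. The exact test permuted group labels over 252 assignments (smallest possible p 0.00794). Correlations used values with group means removed, 1 probe set per gene, in Python 3.11.15 with NumPy 2.4.6. With Hmgcs1 not found, 21 pairs stand in place of the 28 planned. The fit and pair test were tested on simulated data. The number of arrays limits precision, and p-values set a difference or a correlation against the variation between these rats. Some listed genes are not reported here. The members and lists were chosen with earlier results of these data known. Besides members, named genes were those of smallest p in each list (up to 4), fixed names, the 10 genes most like the profile and 5 most opposed. Acat2, Ggps1, Sc5d, Mvd, Fasn, Scd and Slc17a7 were named after their values were seen. Alternatives were other scalings, filters, variance priors, array weights, the replicate number as a block, other probe set choices, and arrays left out.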

Additional observations from a re-analysis of the deposited data

Results flagged for a closer look

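Checked were 88 groups of 5 rats, on 44 probe sets, control and DMHF. They cover the members, genes named by smallest p or as fixed names, and genes most like or most opposed to the profile. Genes named after their values were seen, and further probe sets of named genes other than members, were not checked. In these groups, 1 rat lay far from the others of its group by Dixon's ratio, which chance gives in about 5% of groups. For Insig2, control replicate 3 stood at -0.553 millionths of a log2 unit and the next control rat at 0.0858 (ratio 0.864). No member was among them.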

How the results depend on the processing

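Of 115 differences of members under the alternatives, 111 kept their sign, and all stayed short of the threshold (limma or exact, smallest adjusted p 0.651). The sign of Idi1 turned without DMHF replicate 1 (-0.385) or DMHF replicate 5 (-1.96), and that of Cyp51 without control replicate 4 (0.718) or DMHF replicate 2 (0.0720). With single rats left out, differences ranged from -1.96 to 9.34 for Idi1, -1.90 to 0.718 for Cyp51, -3.81 to -1.31 for Fdps, -0.787 to -0.184 for Fdft1, -0.397 to -0.0778 for Sqle, -1.77 to -0.473 for Dhcr7 and -1.52 to -0.00770 for Insig1. Probe sets past the threshold numbered 0 under every scaling, filter, prior, weight and the exact test, and 0 to 1 with a rat left out, the 1 without DMHF replicate 2. Quantile normalization left variation within groups in 10063 of the 31042 probe sets, so its count of 0 covers those only. It left no variation between rats in the members and so no value for them. The median r of the member pairs ranged from 0.308 to 0.706 with a rat left out, with 18 to 21 positive and 0 past the threshold. Without the 2 rats farthest from the median profile it was 0.129 with 12 positive, and without both DMHF replicates 2 and 3, chosen after seeing the data like the removal of the principal component, 0.184. Setting all arrays to a common median, which adds 1 offset to every gene of an array, gave 12 pairs past the threshold. The array medians spanned 15.2 millionths, more than the within-group SD of any member, so these pairs are not read as covariation of the members. Members more spread in DMHF numbered 5 to 6 with a rat left out, also chosen after seeing the data. Same-numbered rats deviated together at r = 0.0288 to 0.273, all above 0 but not all over 0.1, and 3 of 5 correlated best with their own number. The numbers were not taken as pairs, and whether they mark a shared litter or day is not known. With the replicate block, 0 probe sets passed limma, and the member pairs had a median r of 0.533, 17 positive and 0 past the threshold.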
